A study of Homo sapiens with 24 samples.

Results

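Probe sets for 10 genes of the NOTCH pathway were followed across all arrays of the series. The genes were the receptors NOTCH1, NOTCH2 and NOTCH3, the ligands JAG1, JAG2 and DLL1, and the target genes HES1, HEY1, HEY2 and HEYL. Every probe set that the platform annotation assigned to exactly 1 of these symbols was taken, which gave 27 of the 54675 probe sets on the array. NOTCH1, NOTCH3, JAG2, DLL1, HEY1, HEY2 and HEYL had 2 probe sets each, HES1 had 3, NOTCH2 had 4 and JAG1 had 6. A further probe set listed NOTCH2 beside 4 NOTCH2NL genes and was not used. The NOTCH2NL genes are partial copies of NOTCH2, so that reads of the NOTCH2 probe sets are uncertain where the copies share sequence.

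The arrays came from HEK293 cells, a transformed line derived from human embryonic kidney. Cells were transfected with a pCDNA3 plasmid for Flag-tagged SIRT6 carrying the H133W exchange, with the same plasmid for Flag-tagged wild type SIRT6, with pCDNA3 alone (empty vector) or with no DNA (untransfected). SIRT6 is a nuclear NAD-dependent deacetylase and H133W is a deacetylase-dead form. After 24 h each kind of cell received TNFα at 10 ng/ml or the carrier alone (resting), which made 8 conditions of 3 arrays. The sources disagree on the exposure to TNFα, which is 1 h in the text of the series and 4 h in the methods of the study. All transfections were transient and, by the study's methods, only part of the cells took up plasmid, so that each array averages transfected and untransfected cells. In such bulk RNA a change in the number of responding cells and a change of RNA per cell cannot be told apart.

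NOTCH receptors are single-pass membrane proteins that are cut when a ligand of the Jagged or Delta-like type on a neighbouring cell binds them. A final cut by gamma-secretase frees the intracellular domain, which enters the nucleus and joins the DNA-binding protein RBPJ and a Mastermind-like coactivator. The classical targets are the HES and HEY genes, which code for basic helix-loop-helix repressors that hold back differentiation. TNFα acts mainly through NFκB, and crosstalk between both pathways is known from several cell types.

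The promoters of the target genes are shown because RBPJ recognises a short core in DNA, written here as TGGGAA and as TTCCCA on the opposite strand. RefSeq promoters (GRCh38.p14, from 250 bases before to 10 bases after the start site) were at hand for 8 of the 10 genes, and DLL1 and HEY1 were not among them. The core was found in HES1, HEY2 and HEYL and not in NOTCH1, NOTCH2, NOTCH3, JAG1 or JAG2, while 21.6% of all 35116 promoters of this length held it and 3.1% held it at least 2 times. HES1 (plus strand, chr3:194135898-194136157) held it at -84 and at -70 from the start site, both on the coding strand. HEY2 (plus strand, chr6:125749382-125749641) held it at -213 on the opposite strand and across the start site, at -3, on the coding strand. HEYL (minus strand, chr1:39639634-39639893) held it at -178 on the opposite strand and at -99 on the coding strand. A match is a description of these letters and not a site of binding. The stretches are given 5′ to 3′ along the gene, with the core in capitals.
HES1: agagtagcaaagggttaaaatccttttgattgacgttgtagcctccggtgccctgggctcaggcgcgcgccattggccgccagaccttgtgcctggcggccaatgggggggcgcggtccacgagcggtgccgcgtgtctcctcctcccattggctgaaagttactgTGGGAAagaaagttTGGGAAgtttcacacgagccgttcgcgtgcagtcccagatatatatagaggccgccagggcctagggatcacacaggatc
HEY2: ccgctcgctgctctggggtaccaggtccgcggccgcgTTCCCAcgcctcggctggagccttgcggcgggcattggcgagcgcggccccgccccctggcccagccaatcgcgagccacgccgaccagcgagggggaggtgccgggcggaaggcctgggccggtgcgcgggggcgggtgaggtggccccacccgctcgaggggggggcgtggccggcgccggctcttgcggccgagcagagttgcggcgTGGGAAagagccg
HEYL: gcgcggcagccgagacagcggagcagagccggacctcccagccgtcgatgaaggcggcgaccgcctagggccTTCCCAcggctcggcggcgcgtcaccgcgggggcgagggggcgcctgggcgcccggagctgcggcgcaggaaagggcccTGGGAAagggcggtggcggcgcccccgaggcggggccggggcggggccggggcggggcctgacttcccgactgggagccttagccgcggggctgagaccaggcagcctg

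The values are log2 intensities normalized by the authors with RMA. All 10 genes had at least 1 probe set with a mean above the median probe set of the array. The mean over the 24 arrays was at the 97.5th percentile for NOTCH2, the 96.2nd for JAG1, the 92.6th for HES1 and the 98.0th for HEY1, each by the probe set with the highest mean, which leads for its gene throughout. It was at the 75.3rd percentile for NOTCH1, the 81.6th for NOTCH3, the 79.5th for JAG2 and the 78.3rd for HEY2, against the 67.5th for HEYL and the 59.1st for DLL1. The dimmest probe set of NOTCH1, NOTCH3, JAG1, DLL1 and HES1 lay below the median (33.0th to 47.9th percentile), and the other 22 of the 27 lay above it.

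**Figure D1:**
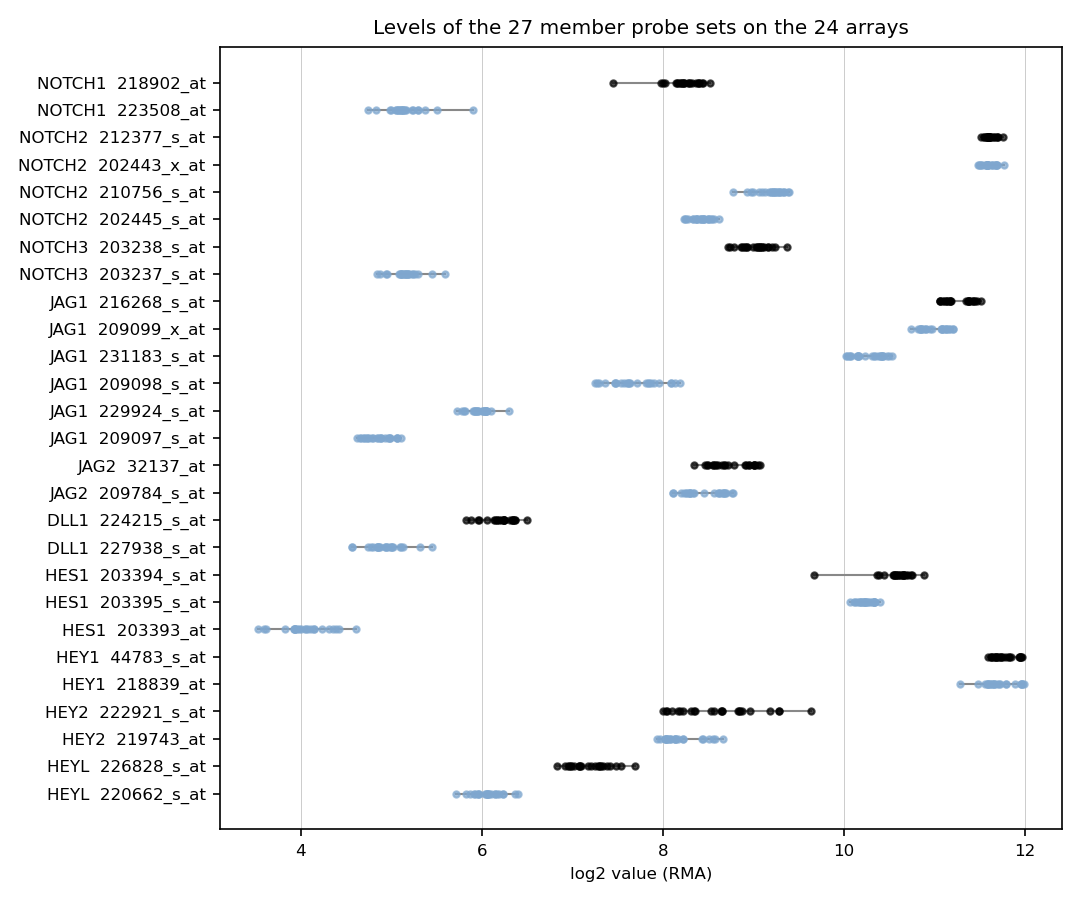
Log2 value (x axis) of each of the 27 probe sets on the 24 arrays, 1 point per array, with black points for the leading probe set of each gene and blue points for the others. NOTCH2 212377_s_at spans only 11.52 to 11.76 over all arrays, while HEY2 222921_s_at spans 8.0 to 9.64.

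Of the HEK293 markers, LIN28B, NEFL, CDH2, KRT18 and KRT8 were bright (86.2nd to 99.2nd percentile by leading probe set), whereas PAX2, LHX1 and NEFM lay near the median (45.9th to 50.8th). Markers of blood cells and endothelium were at or below the 35.1st percentile, and of the fibroblast markers only COL1A1 reached the 68.8th. TNFα raised NFKBIA by 2.34, TNFAIP3 by 3.62 and CCL2 by 4.0 log2 units in empty vector cells (limma, adjusted p = 2.3e-14, 1e-15 and 9.43e-13), and the SIRT6 probe set 233179_x_at was 1.15 log2 units higher in H133W than in empty vector cells (adjusted p = 0.0357) and 0.75 higher in SIRT6 cells (adjusted p = 0.749), both at rest. The second SIRT6 probe set, 219613_s_at, differed by 0.08 and 0.07 at rest. With TNFα and all arrays, 219613_s_at was 0.48 higher in H133W than in empty vector cells (limma, adjusted p = 0.00733). There 233179_x_at was 0.80 higher (adjusted p = 0.120). In SIRT6 cells with TNFα they were 0.15 and 0.59 higher (adjusted p = 0.915 and 0.781). Whether either one reads the plasmid's transcript is not known from the sources used here. Array 3 of H133W cells with TNFα stood apart, with an actin 3′ to 5′ difference of 3.03 log2 units against 1.33 to 1.79 on 22 arrays, and empty vector array 2 had 2.05. Most changes in H133W cells with TNFα that passed the test are given with and without the first of these arrays. Averages over both states or over the kinds of cell include it unless stated.

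HEY2 was the only one of the 10 genes called in any comparison. A call here needed a fold change above 1.5 beside an adjusted p below 0.05, and passing the test means the adjusted p alone. By 222921_s_at HEY2 was higher in H133W than in empty vector cells, by 1.66-fold at rest and 1.90-fold with TNFα. With TNFα this difference was 0.93 log2 units, and 0.66 without the H133W array that stood apart. By the other HEY2 probe set, 219743_at, the difference at rest was 0.46 log2 units, below the fold limit. With TNFα 219743_at did not pass the test. In resting cells HEY2 (222921_s_at) read 9.28, 9.28 and 9.18 log2 units in H133W cells, 8.83, 8.96 and 8.85 in SIRT6 cells, 8.35, 8.66 and 8.53 in empty vector cells and 8.31, 8.05 and 8.36 in untransfected cells. The H133W arrays lay above all SIRT6 arrays and these above all empty vector arrays, while empty vector and untransfected arrays overlapped.

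The difference between H133W and empty vector cells at rest was 0.73 ± 0.14 log2 units (SE, n = 3 each, limma, adjusted p = 0.00571). This made 1 of the 27 probe sets called, where 0.77% of all probe sets were, and both HEY2 probe sets were the 2 of 27 that passed the test, where 3.03% of all did. The H133W arrays lay wholly above the empty vector arrays in 5 of the 27 probe sets, against 10.1% of all. They lay wholly below in 1 of the 27, against 12.3% of all. SIRT6 cells exceeded empty vector cells by 0.37 (95% interval 0.07 to 0.66) and this did not pass (adjusted p = 0.753). SIRT6 arrays lay wholly above empty vector arrays in 4 of the 27, against 6.25% of all, and wholly below in 1, against 5.39%. H133W cells exceeded SIRT6 cells by 0.37 (0.07 to 0.66), which did not pass either (adjusted p = 0.425), and 3 of the 27 were without overlap and higher in H133W cells, against 9.14% of all. Without overlap and lower in H133W than in SIRT6 cells were 2 of the 27, against 12.2% of all. Empty vector cells exceeded untransfected cells by 0.27 (adjusted p = 0.448).

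With TNFα, HEY2 (222921_s_at) read 8.88, 8.84 and 9.64 in H133W cells, 8.65, 8.57 and 8.64 in SIRT6 cells, 8.19, 8.17 and 8.22 in empty vector cells and 8.04, 8.10 and 8.0 in untransfected cells. The order of the conditions was that of resting cells, with no overlap between neighbours. H133W cells exceeded empty vector cells by 0.93 ± 0.14 (SE, n = 3 each, limma, adjusted p = 0.000505), again 1 of 27 probe sets called against a background of 1.4%. The test was passed by 3 of 27, HEY2 and a pair of HES1 probe sets, where 5.25% of all probe sets passed. The arrays lay apart with H133W higher in 2 of 27, against 10.1% of all, and with H133W lower in 3 of 27, against 11.9% of all. The third H133W array carried part of the HEY2 difference of 0.93, and without it the difference was 0.66 (adjusted p = 0.000157). Fitted to the 6 arrays of this comparison alone it did not pass (adjusted p = 0.239). SIRT6 cells exceeded empty vector cells by 0.43 (0.13 to 0.72, adjusted p = 0.452), and H133W cells exceeded SIRT6 cells by 0.50 (0.20 to 0.80, adjusted p = 0.0948) with that array and by 0.24 (adjusted p = 0.283) without it. Arrays lay apart with the SIRT6 arrays above the empty vector arrays in 2 of 27 (9.38% of all) and with the H133W arrays above the SIRT6 arrays in 1 of 27 (8.55% of all). The SIRT6 arrays lay wholly below the empty vector arrays in 2 of 27 (10.4% of all). The H133W arrays lay wholly below the SIRT6 arrays in 5 of 27 (8.9% of all).

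The second HEY2 probe set, 219743_at, gave a different picture with TNFα. At rest it read 8.58, 8.56 and 8.67 in H133W cells, 8.45, 8.43 and 8.51 in SIRT6 cells, 8.22, 8.05 and 8.17 in empty vector cells and 8.13, 8.13 and 8.22 in untransfected cells. H133W cells lay 0.46 ± 0.06 above empty vector cells (SE, n = 3 each, limma, adjusted p = 0.000211), which passed the test below the 1.5-fold limit, and SIRT6 cells 0.32 above them (0.19 to 0.45, adjusted p = 0.0707). With TNFα all conditions lay between 7.94 and 8.15, at 8.09, 8.04 and 8.05 in H133W cells, 8.07, 7.94 and 8.13 in SIRT6 cells, 8.03, 7.97 and 8.04 in empty vector cells and 8.08, 8.02 and 8.15 in untransfected cells. The difference between H133W and empty vector cells was then 0.05 (-0.08 to 0.18, adjusted p = 0.736). The probe sets of HEY2 therefore disagreed on H133W cells with TNFα. Over both states together the difference was 0.83 by 222921_s_at (adjusted p = 1.58e-05, 1 of 27 called against 0.829%) and 0.25 by 219743_at (adjusted p = 0.000816), and 3 of 27 passed the test, where 9.25% of all probe sets did.

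**Figure D2:**
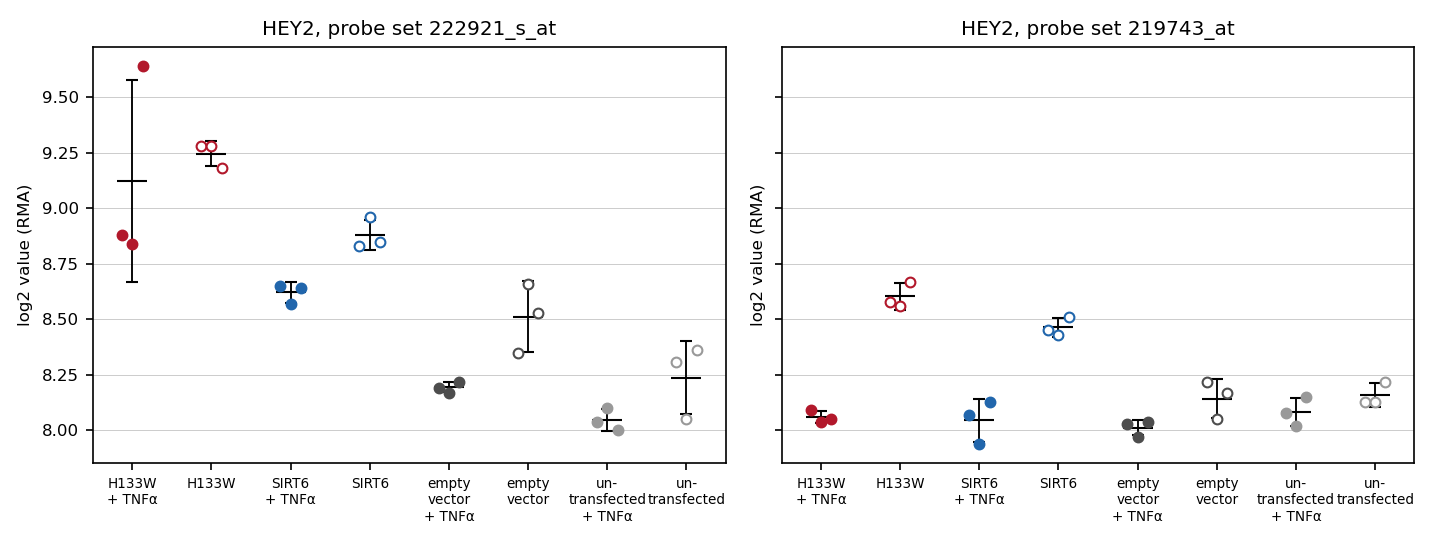
Log2 values of HEY2 by both probe sets in the 8 conditions, filled points with TNFα and open points at rest, 1 point per array, with black bars for the mean ± SD of 3 arrays. In 222921_s_at the H133W arrays are highest in both states (8.84 to 9.64 with TNFα, 9.18 to 9.28 at rest), whereas in 219743_at the H133W and SIRT6 arrays stand above the others at rest (8.43 to 8.67) and all arrays with TNFα lie between 7.94 and 8.15.

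HES1 was read by 3 probe sets that did not give the same answer. With TNFα, HES1 (203394_s_at) read 10.39, 10.37 and 9.67 in H133W cells against 10.60, 10.57 and 10.67 in empty vector cells. It fell by 0.47 (limma, adjusted p = 0.0357), but without the third H133W array the change was -0.23 and did not pass (adjusted p = 0.102). Nor did it pass with any 1 of the 3 empty vector arrays left out (adjusted p 0.0857 to 0.122 over the 4 cases). The dim probe set 203393_at read 4.14, 3.93 and 3.53 against 4.61, 4.31 and 4.42, a change of -0.58 (adjusted p = 0.0221) that without the same H133W array was -0.42 (adjusted p = 0.118). It also did not pass without array 1 or array 3 of empty vector cells (adjusted p 0.0630 to 0.118 over these 3 cases). The bright probe set 203395_s_at read 10.19, 10.07 and 10.40 against 10.21, 10.11 and 10.12 and differed by 0.08 (adjusted p = 0.573). At rest no HES1 probe set passed between H133W and empty vector cells. Over both states 203393_at was lower in H133W cells, by a change of -0.45 (adjusted p = 0.00760), at a level in the 33.0th percentile of the array. SIRT6 cells with TNFα differed from empty vector cells by -0.46 in the same probe set and did not pass (adjusted p = 0.388).

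HEY1, the closest relative of HEY2 in this set, did not pass between plasmids. At rest HEY1 (44783_s_at) read 11.97, 11.96 and 11.95 in H133W cells, 11.94, 11.95 and 11.95 in SIRT6 cells, 11.85, 11.83 and 11.76 in empty vector cells and 11.71, 11.83 and 11.68 in untransfected cells. H133W cells were 0.14 (0.03 to 0.26, adjusted p = 0.206) and SIRT6 cells 0.13 above empty vector cells, with no overlap. With TNFα the H133W difference was 0.01 in this probe set. The other HEY1 probe set, 218839_at, read 11.96, 11.97 and 11.97 in H133W against 11.79, 11.72 and 11.79 in empty vector cells at rest. With TNFα it read 11.62, 11.48 and 11.29 against 11.59, 11.59 and 11.64. HEYL differed between H133W and empty vector cells by no more than 0.24 log2 units in either probe set and state.

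No receptor or ligand probe set passed the test with either plasmid. Over the 8 receptor probe sets the change in H133W against empty vector cells ran from -0.12 to 0.11 at rest and from -0.27 to 0.05 with TNFα, with adjusted p values of 0.352 or more. Over the 10 ligand probe sets it ran from -0.08 to 0.14 and from -0.18 to 0.14, and in SIRT6 against empty vector cells no receptor or ligand probe set moved by more than 0.19 in either state. The value of -0.27 belonged to NOTCH1 (218902_at), which read 8.20, 8.19 and 7.45 in H133W cells with TNFα against 8.23, 8.16 and 8.28 in empty vector cells, and it was -0.03 without the third H133W array.

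None of the 27 probe sets passed in SIRT6 against empty vector cells, where 0.0713% of all probe sets passed at rest and 0.135% with TNFα (0.0348% and 0.0695% with the fold limit), and 4 and 2 of the 27 had an unadjusted p under 0.05. None passed in H133W against SIRT6 cells (0.428% of all probe sets at rest and 1.15% with TNFα, or 0.119% and 0.333% with the fold limit, with 3 and 5 of the 27 at an unadjusted p under 0.05) or in empty vector against untransfected cells (0.269% and 0.0439%, or 0.0933% and 0.0329% with the fold limit, with 4 and 2). The comparisons of H133W and of SIRT6 cells share the empty vector arrays. The median change over the 27 probe sets was -0.01 in H133W against empty vector cells at rest, where it was -0.02 over all probe sets.

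**Figure D3:**
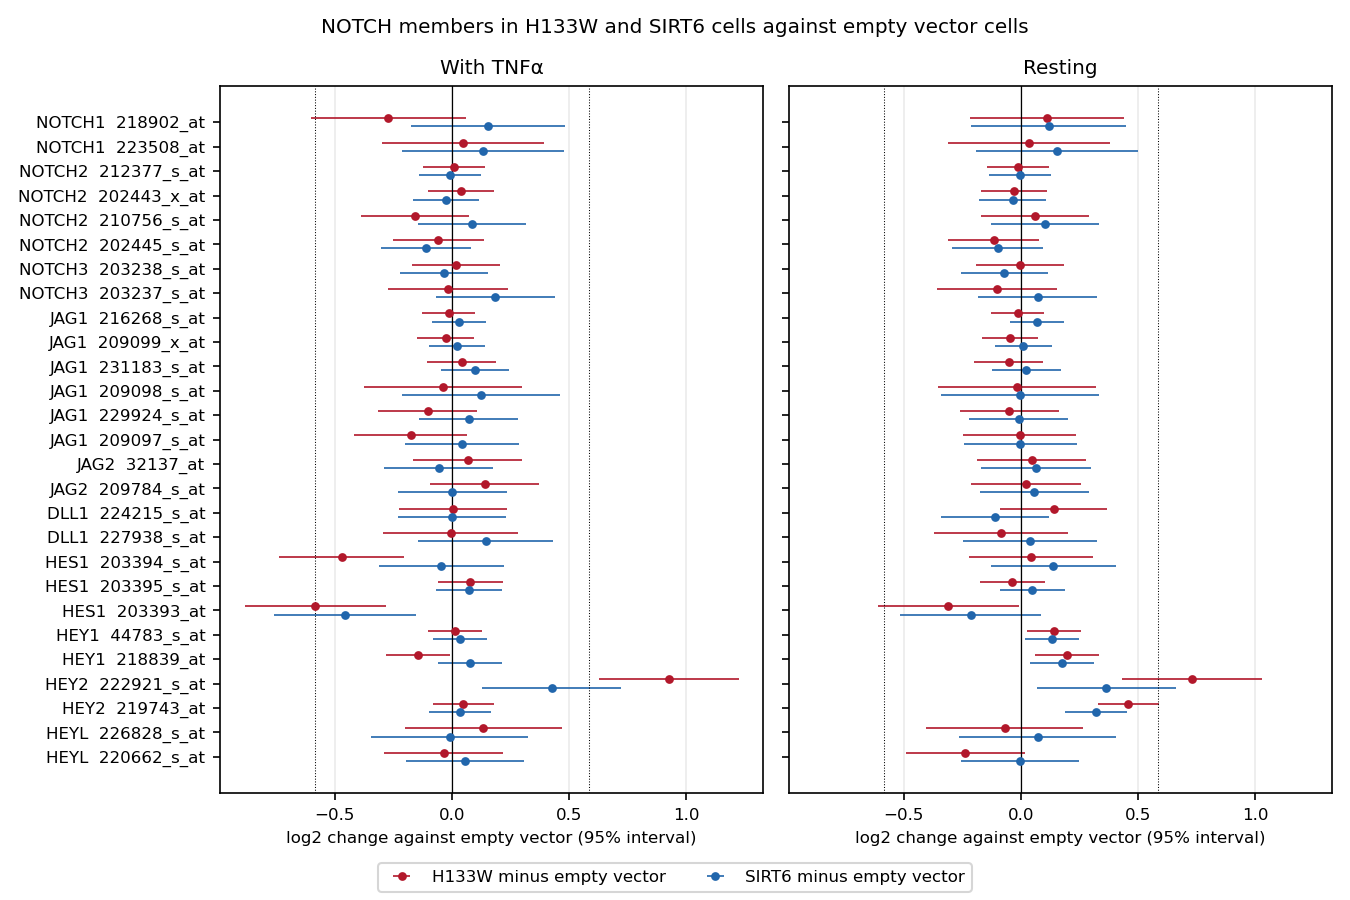
Log2 change (x axis, points with 95% intervals) of the 27 probe sets in H133W cells (red) and SIRT6 cells (blue) against empty vector cells, with TNFα on the left and at rest on the right, with dotted lines at 1.5-fold. HEY2 222921_s_at stands outside the dotted lines in H133W cells at 0.93 with TNFα and 0.73 at rest, and the receptors and ligands lie around 0.

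TNFα lowered JAG1 in every kind of cell. JAG1 codes for a Jagged ligand, and its leading probe set 216268_s_at fell by 0.29 ± 0.03 log2 units on average over the 4 kinds of cell (SE, limma, adjusted p = 2.47e-07). It read 11.13, 11.07 and 11.14 with TNFα against 11.45, 11.35 and 11.37 at rest in H133W cells. In SIRT6 cells it read 11.19, 11.11 and 11.17 with TNFα against 11.42, 11.47 and 11.52 at rest. In empty vector cells it read 11.17, 11.07 and 11.14 with TNFα against 11.44, 11.39 and 11.37 at rest, and in untransfected cells 11.10, 11.06 and 11.18 against 11.38, 11.43 and 11.38. All 12 arrays with TNFα thus lay below all 12 resting arrays.

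By kind of cell the change of JAG1 216268_s_at was -0.27 in H133W cells (adjusted p = 0.00622), -0.31 in SIRT6 cells (adjusted p = 0.00199), -0.27 in empty vector cells (adjusted p = 0.00749) and -0.28 in untransfected cells (adjusted p = 0.00596). Without TNFα array 3 the change in H133W cells was -0.29 (adjusted p = 0.00837). It did not pass in H133W cells without resting array 1 (-0.24, adjusted p = 0.0513) or in empty vector cells without TNFα array 2 (-0.24, adjusted p = 0.0645). Fitted to the 6 arrays of 1 kind of cell alone, it passed in SIRT6 cells and not in H133W (adjusted p = 0.331), empty vector (0.149) or untransfected cells (0.209). On average over the kinds of cell, 4 of the 6 JAG1 probe sets passed, with changes of -0.26 to -0.42, and the 2 dimmest, 229924_s_at and 209097_s_at, did not. In single kinds of cell 209099_x_at also passed in all 4, and 231183_s_at in empty vector and untransfected cells, with changes of -0.23 to -0.33. Apart from 209099_x_at in untransfected cells, these results did not pass in 3 to 5 of 6 fits without 1 array (adjusted p 0.0573 to 0.171). For 209099_x_at in H133W cells these fits included the one without TNFα array 3. None of the JAG1 changes reached 1.5-fold.

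JAG2, a second Jagged ligand, moved the same way. JAG2 (32137_at) read 8.56, 8.49 and 8.95 with TNFα against 8.92, 9.01 and 9.02 at rest in H133W cells, and 8.55, 8.59 and 8.47 against 9.01, 9.05 and 8.95 in SIRT6 cells. It read 8.50, 8.68 and 8.61 with TNFα against 8.72, 9.08 and 9.01 at rest in empty vector cells, and 8.58, 8.65 and 8.34 against 8.91, 8.69 and 8.79 in untransfected cells. Only the third H133W array broke the separation of the states. Averaged over the kinds of cell JAG2 fell by 0.35 ± 0.06 (SE, adjusted p = 0.000201), and by 0.34 in its other probe set, 209784_s_at (adjusted p = 0.000316). Within 1 kind of cell both probe sets passed in SIRT6 cells (changes of -0.46 and -0.44, adjusted p = 0.0305 and 0.0445), and neither passed without any 1 of these 6 arrays (adjusted p 0.0590 to 0.197). In H133W cells JAG2 32137_at changed by -0.32 (adjusted p = 0.130) with all arrays and by -0.46 (adjusted p = 0.0162) without TNFα array 3. DLL1, a Delta-like ligand, did not pass in any kind of cell, with changes of -0.18 to 0.28.

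Of the receptors, NOTCH3 alone passed on average. NOTCH3 (203238_s_at) changed by -0.16 (adjusted p = 0.0277), and it did not pass in 6 of the 24 fits without 1 array (adjusted p 0.0520 to 0.0552). In single kinds of cell it did not pass, at -0.17 in H133W, -0.15 in SIRT6, -0.19 in empty vector and -0.11 in untransfected cells. The dimmer NOTCH3 probe set, 203237_s_at, did not pass in any kind of cell or on average. Its means with TNFα and at rest were 5.05 and 5.02 in H133W and 5.25 and 5.19 in SIRT6 cells. They were 5.07 and 5.12 in empty vector and 5.21 and 5.30 in untransfected cells. The NOTCH1 and NOTCH2 probe sets did not pass in any kind of cell or on average.

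Among the targets HEY1 fell with TNFα. HEY1 (44783_s_at) read 11.67, 11.64 and 11.79 with TNFα against 11.97, 11.96 and 11.95 at rest in H133W cells, and 11.74, 11.69 and 11.74 against 11.94, 11.95 and 11.95 in SIRT6 cells. In empty vector cells it read 11.73, 11.66 and 11.68 with TNFα against 11.85, 11.83 and 11.76 at rest, and in untransfected cells 11.63, 11.60 and 11.63 against 11.71, 11.83 and 11.68. The states did not overlap in any kind of cell. On average HEY1 fell by 0.18 ± 0.03 (SE, adjusted p = 0.000118), and by 0.25 ± 0.03 in 218839_at (adjusted p = 1.68e-05). By kind of cell 218839_at changed by -0.50 in H133W cells (adjusted p = 9.39e-05, and -0.41 without TNFα array 3, adjusted p = 0.000153), by -0.26 in SIRT6 cells (adjusted p = 0.0427), by -0.16 in empty vector cells (adjusted p = 0.313) and by -0.09 in untransfected cells (adjusted p = 0.860). HEY1 44783_s_at changed by -0.26 in H133W cells (adjusted p = 0.0117) and by -0.22 in SIRT6 cells (adjusted p = 0.0348). Neither HEY1 probe set passed in SIRT6 cells without any 1 of the 6 arrays (adjusted p 0.0589 to 0.211), and 44783_s_at did not pass in H133W cells without resting array 1 or 2 (adjusted p 0.0512 to 0.0538), with -0.30 (adjusted p = 0.00314) without TNFα array 3. Fitted to the 6 H133W arrays alone, neither passed (adjusted p = 0.213 for 218839_at and 0.380 for 44783_s_at).

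HEY2 fell with TNFα by 219743_at, whose values stand above. The change was -0.54 in H133W cells (adjusted p = 2.16e-05, the same without TNFα array 3 at 9.2e-05, but 0.0779 fitted to the 6 H133W arrays alone), -0.42 in SIRT6 cells (adjusted p = 0.000469), -0.13 in empty vector cells (adjusted p = 0.422) and -0.08 in untransfected cells (adjusted p = 0.897), with -0.29 ± 0.03 on average (SE, adjusted p = 1.45e-06). The responses of H133W and empty vector cells differed by -0.41 (-0.60 to -0.22), which did not pass (adjusted p = 0.567), nor did the difference of -0.29 between SIRT6 and empty vector cells (-0.47 to -0.10, adjusted p = 1). By 222921_s_at the changes were -0.12, -0.26, -0.32 and -0.19 in H133W, SIRT6, empty vector and untransfected cells. Their average of -0.22 was just inside the threshold (adjusted p = 0.0483), and without 1 array it was outside in 21 of 24 fits (adjusted p 0.0530 to 0.0885). In H133W cells the change of 222921_s_at was -0.38 without TNFα array 3 (adjusted p = 0.0211).

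HES1 again differed by probe set. On average 203394_s_at changed by -0.20 (adjusted p = 0.0433) and 203395_s_at by -0.11 (adjusted p = 0.0378), while the dim 203393_at changed by 0.19 and did not pass (adjusted p = 0.105). The first did not pass in 19 and the second in 17 of 24 fits without 1 array (adjusted p 0.0501 to 0.0819). In H133W cells 203394_s_at changed by -0.53 (adjusted p = 0.0242), and by -0.30 without TNFα array 3 (adjusted p = 0.0412), and the average was then -0.14 (adjusted p = 0.00694). It did not pass in H133W cells without any 1 of the 3 resting arrays (adjusted p 0.0636 to 0.0927) or fitted to the 6 H133W arrays alone (0.476). HEYL did not pass in any kind of cell. Its leading probe set 226828_s_at read 6.83, 6.92 and 7.69 with TNFα against 7.29, 7.32 and 7.17 at rest in H133W cells, with array 3 again apart. The change there was -0.11 (adjusted p = 0.769) with that array and -0.38 (adjusted p = 0.0909) without it.

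On average over the 4 kinds of cell 13 of the 27 probe sets passed the adjusted p, from 6 genes and all lower with TNFα, against 7.1% of all probe sets that were lower and 11.7% in either direction. None of the 27 passed 1.5-fold, where 0.843% of all probe sets did, and the largest change was -0.42, in JAG1 209098_s_at. The median change of the 27 was -0.11, and that of all probe sets -0.01. In single kinds of cell the adjusted p was passed by 6 of 27 in H133W cells (background 3.24%), 7 in SIRT6 cells (2.09%), 3 in empty vector cells (1.95%) and 3 in untransfected cells (1.61%), and none was over 1.5-fold (1.12%, 0.845%, 0.86% and 0.775%). All of these were lower with TNFα. The difference in response did not pass for any of the 27 between H133W and empty vector, SIRT6 and empty vector or empty vector and untransfected cells, with 3, 1 and 0 at an unadjusted p under 0.05 and backgrounds of 0.00366%, 0% and 0%. Unequal counts are therefore not shown to be differences between the kinds of cell. The TNFα arrays lay wholly below the resting arrays in 9 of 27 in H133W cells (11.6% of all), 13 in SIRT6 cells (15.2%), 11 in empty vector cells (11.8%) and 9 in untransfected cells (6.92%).

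**Figure D4:**
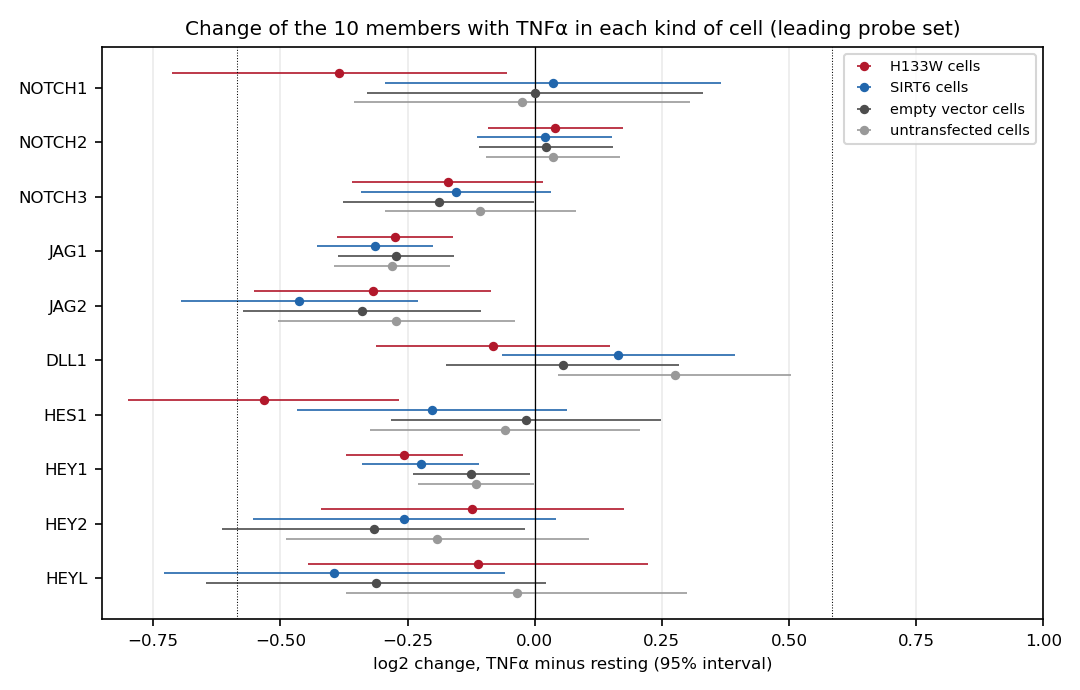
Log2 change with TNFα (x axis, points with 95% intervals) of the 10 genes by leading probe set in the 4 kinds of cell, with dotted lines at 1.5-fold. JAG1 lies between -0.31 and -0.27 in all 4 kinds of cell, and no point is beyond 1.5-fold.

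The wider pathway was read from a list that covers other receptors and ligands, proteases, glycosyltransferases, ubiquitin ligases, the nuclear complex, corepressors and further targets. Of 76 further genes of the pathway, 69 had a probe set of their own and the others were not analysed here. In H133W against empty vector cells MIB2 was the 1 gene called at rest and MYC the 1 gene called with TNFα by leading probe set, from 14 ubiquitin ligases and endocytic regulators and from 10 other targets and partners. That is 1 of 69 genes in each state, where 0.77% of all probe sets were called at rest and 1.4% with TNFα, and such a count is near the background. MIB2 codes for a ubiquitin ligase of the Mind bomb type that acts on ligands in the cell that presents them. MIB2 (226644_at) read 8.60, 8.51 and 8.57 in resting H133W cells against 7.98, 7.75 and 7.87 in empty vector cells. It was higher by 0.70 ± 0.08 (SE, n = 3 each, adjusted p = 2.62e-05), and by 0.56 against SIRT6 cells at 8.10, 8.06 and 7.86 (adjusted p = 0.00148). With TNFα it read 8.59, 8.55 and 8.70 in H133W cells, 7.94, 8.10 and 7.82 in SIRT6 cells and 8.06, 8.06 and 7.97 in empty vector cells. H133W cells then exceeded SIRT6 cells by 0.66 (adjusted p = 0.000262) and empty vector cells by 0.58 (adjusted p = 0.000167), and the second of these values was just under 1.5-fold. Without the third H133W array these differences were 0.62 (adjusted p = 0.00153) and 0.54 (adjusted p = 0.00104). The difference from SIRT6 cells did not pass in a fit to these 6 arrays alone (adjusted p = 0.374). The other MIB2 probe sets, 228261_at, 241377_s_at, 241378_at and 241541_at, were called in no comparison, so that the result rests on 226644_at. In untransfected cells 226644_at read 7.71, 7.61 and 7.68 at rest and 7.53, 7.64 and 7.67 with TNFα. Empty vector cells exceeded untransfected cells by 0.20 at rest (limma, adjusted p = 0.314) and by 0.42 with TNFα (adjusted p = 0.0636). Neither difference passed.

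MYC, a target of NOTCH in T cell leukaemia, read 8.95, 8.69 and 8.86 in H133W cells with TNFα against 9.45, 9.57 and 9.56 in empty vector cells, and it fell by 0.69 (adjusted p = 0.00248). Without the third H133W array the change was -0.71 (adjusted p = 0.00720), and fitted to the 6 arrays alone it did not pass (0.0791). A dim probe set of MAML2, 235106_at, was also called lower there (-0.88, adjusted p = 0.0405), but not without the third H133W array (-0.56, adjusted p = 0.209). The leading MAML2 probe set changed by -0.41 (adjusted p = 0.0149), and by -0.28 without that array (adjusted p = 0.0744). No gene of the pathway list was called in SIRT6 against empty vector, in resting H133W against SIRT6 or in empty vector against untransfected cells, where the share over all probe sets was 0.119% or less.

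Of the 3 Mastermind-like coactivators on the list, MAML2 and MAML3 moved in opposite directions with TNFα by leading probe set. MAML1 was called in no comparison. MAML2 (235457_at) read 8.19, 8.14 and 7.79 with TNFα against 7.27, 7.42 and 7.42 at rest in H133W cells, and 8.48, 8.31 and 8.42 against 7.46, 7.54 and 7.47 in SIRT6 cells. It read 8.43, 8.39 and 8.52 with TNFα against 7.61, 7.67 and 7.41 at rest in empty vector cells, and 8.38, 8.38 and 8.32 against 7.46, 7.71 and 7.51 in untransfected cells. MAML2 rose by 0.67, 0.91, 0.89 and 0.80 in these 4 kinds of cell (adjusted p = 0.00021, 3.71e-06, 5.67e-06 and 2.1e-05). The states did not overlap in any of them. In H133W cells it was 0.79 (adjusted p = 8.31e-06) without TNFα array 3 and did not pass fitted to the 6 H133W arrays alone (adjusted p = 0.177). The dim MAML2 probe set 235106_at changed by -0.02 in H133W cells (adjusted p = 0.973, and 0.29 without array 3), 0.69 in SIRT6 (adjusted p = 0.227), 1.03 in empty vector (adjusted p = 0.0263) and 0.62 in untransfected cells (adjusted p = 0.367), so that the probe sets disagreed in H133W cells.

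MAML3 (242794_at) read 6.03, 6.18 and 6.00 with TNFα against 6.91, 6.56 and 6.64 at rest in H133W cells, and 6.39, 6.06 and 6.07 against 6.81, 6.92 and 6.79 in SIRT6 cells. In empty vector cells it read 6.40, 5.89 and 6.02 with TNFα against 6.71, 6.98 and 6.96 at rest. MAML3 fell by 0.63, 0.67 and 0.78 in these kinds of cell (adjusted p = 0.00608, 0.00425 and 0.000872), and by 0.54 in untransfected cells, under the 1.5-fold limit (adjusted p = 0.0262). The result in H133W cells was -0.60 (adjusted p = 0.0250) without TNFα array 3, -0.53 (adjusted p = 0.0538) without resting array 1, and did not pass in a fit to the 6 arrays alone in H133W (0.177) or empty vector cells (0.0550). On average over the kinds of cell MAML2 rose by 0.82 (adjusted p = 1.24e-10) and MAML3 fell by 0.66 (adjusted p = 2.51e-07). The other MAML3 probe sets, 207946_at and 228508_at, were called in no comparison, so that the fall rests on 242794_at.

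Of the other targets and partners, SOX9, a transcription factor of progenitor cells and a known NOTCH target in several tissues, rose by 0.63 on average (adjusted p = 2.55e-05). It passed in SIRT6 (0.68, adjusted p = 0.0406), empty vector (0.85, adjusted p = 0.00787) and untransfected cells (0.72, adjusted p = 0.0311), and not in H133W cells, where it changed by 0.28 with TNFα array 3 (9.46, against 10.31 and 10.22 on the other two) and by 0.55 without it (adjusted p = 0.0329). The SOX9 calls in SIRT6 and in untransfected cells were lost without any 1 of their arrays (adjusted p 0.0622 to 0.260), and that in empty vector cells without resting array 2 (0.68, adjusted p = 0.0685). The difference between H133W and empty vector cells was not past the threshold (adjusted p = 0.567). By the other SOX9 probe set, 202935_s_at, the rise passed in empty vector cells (0.97, adjusted p = 0.0390). It did not pass in SIRT6 (0.64, adjusted p = 0.279), untransfected (0.87, adjusted p = 0.0918) or H133W cells (0.17, adjusted p = 0.761). Its average was 0.66 (adjusted p = 0.000776). On average ID1 fell by 0.52, ID2 fell by 0.42 and MYC fell by 0.44 (adjusted p = 1.26e-05, 3.77e-07 and 5.3e-05), below 1.5-fold. In H133W cells ID1 fell by 0.70, ID2 fell by 0.60 and MYC fell by 0.73 (adjusted p = 0.00364, 0.000175 and 0.00184). Without TNFα array 3, which read 8.03 for ID1 against 7.64 and 7.50, these changes were -0.85, -0.62 and -0.74 (adjusted p = 0.000416, 0.000439 and 0.00544), and fitted to the 6 H133W arrays alone none passed (0.213, 0.154 and 0.0657). ID1 also passed in SIRT6 cells (-0.56, adjusted p = 0.0257) and empty vector cells (-0.59, adjusted p = 0.0181, but not in 5 of 6 fits without 1 array, adjusted p 0.0571 to 0.109). ID2 passed in SIRT6 (-0.43, adjusted p = 0.00570) and empty vector cells (-0.39, adjusted p = 0.0126). MYC passed neither in SIRT6 (-0.49, limma, adjusted p = 0.0515) nor in empty vector cells (-0.35, adjusted p = 0.229). In untransfected cells ID1 (-0.21), ID2 (-0.27) and MYC (-0.21) did not pass (adjusted p = 0.763, 0.160 and 0.748). The responses of H133W and empty vector cells did not differ past the threshold for any of them (adjusted p 0.567 to 0.846). ID1 and ID2 code for inhibitors of basic helix-loop-helix proteins. DNER, a noncanonical ligand, rose in SIRT6 cells (0.70, adjusted p = 0.0317). The call was lost in 5 of 6 such fits (adjusted p 0.0564 to 0.176), and the response did not pass a test of its difference from empty vector cells (adjusted p = 1). DNER changed by 0.52 in H133W (limma, adjusted p = 0.102), 0.45 in untransfected (0.329) and -0.10 in empty vector cells (0.862). Its probe set was dim, with a mean of 5.07 log2 units over the arrays. By leading probe set 2 of the 69 genes rose and 1 fell past both thresholds on average, beside the background of 0.843% over all probe sets. The median change of the 69 leading probe sets with TNFα was -0.04, against -0.01 over all probe sets.

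**Figure D5:**
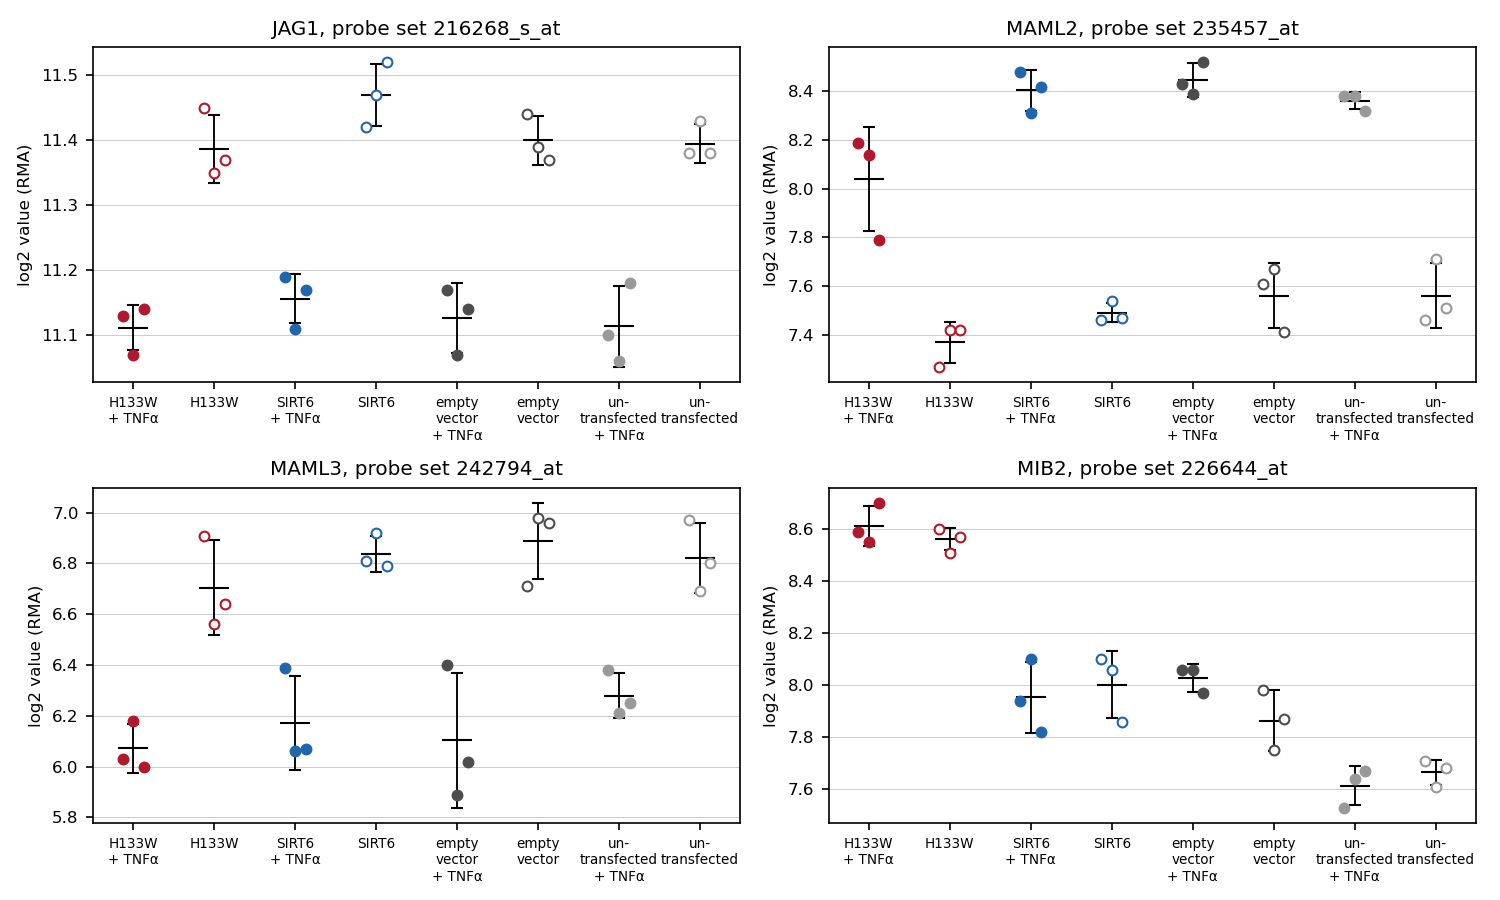
Log2 values of JAG1, MAML2, MAML3 and MIB2 by leading probe set in the 8 conditions, filled points with TNFα and open points at rest, 1 point per array, with black bars for the mean ± SD of 3 arrays. JAG1 (11.06 to 11.19 with TNFα, 11.35 to 11.52 at rest) and MAML2 (7.79 to 8.52 with TNFα, 7.27 to 7.71 at rest) separate by TNFα in all kinds of cell, and MIB2 is highest in H133W cells in both states.

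HEY2 by 219743_at had the largest variance between conditions relative to that within them among the 27 probe sets. Over the 24 arrays and 19765 genes the closest to it by Pearson's r were ARID3A (0.88), CXXC5 (0.88), SLC6A9 (0.85), TSHZ3 (0.85) and PDGFA (0.85). Within conditions r was 0.05, 0.03, 0.50, -0.03 and 0.17, so that the likeness lay mostly between condition means. All points share the same libraries and normalization, and the coefficients are a description.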

How the data were processed

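Total RNA of 24 HEK293 cultures was hybridized to Affymetrix HG U133 Plus 2.0 arrays, 3 for each of 8 conditions. Intensities were processed by the authors with RMA, and the deposited log2 values of 54675 probe sets entered the fit as they were, with 0 value columns left without a sample. The submitters' notes name ArrayStudio, and its settings are not given in the sources used here. An RMA value borrows its background and quantiles from all arrays, so that changes are relative to the bulk of probe sets. The number of arrays limits the precision. The labels call the 3 arrays of a condition biological replicates. The p values rest on the spread of arrays around their condition means, pooled over all 8 conditions and moderated by limma. The study's methods describe assays in triplicate, and whether these came from separate experiments is not stated.

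Probe sets were named by the platform's gene table. Of all, 41097 stood for 1 gene, 1801 for several and 11777 for none, which covers 19775 genes. All arrays entered a model with a mean for each condition, fitted in R 4.3.3 with limma 3.58.1 (lmFit and eBayes, residual degrees of freedom 16, prior 3.47). There were 17 contrasts, and the Benjamini-Hochberg adjustment of each ran over the whole table. A probe set passed at an adjusted p under 0.05 and was called with a fold change over 1.5 besides, the thresholds of the study. The script was tested on simulated data.

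The genes followed, the pathway list and the markers were chosen with earlier results of these data known. The text names all probe sets of the 10 genes that a result turns on, led by the one with the highest mean, each gene of the pathway list called in a comparison (at most 4 by size), and the 5 genes most like the probe set with the largest F. Promoters came from RefSeq (GRCh38.p14), with a motif search of 6 letters on both strands.

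As alternatives served an ordinary linear model, a fit to the arrays of 1 comparison only, a variance trend, array weights, the probe sets under the median left out, a second centring, a second quantile normalization, no fold threshold, the replicate number as a block and the omission of each array. The omission of the 3 arrays of lowest weight together (H133W with TNFα array 3, empty vector array 2 and untransfected array 2) was chosen after seeing the data. Array quality was read from the 3′ and 5′ control probe sets of actin and GAPDH.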

Additional observations from a re-analysis of the deposited data

How the results depend on the processing

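In resting H133W against empty vector cells HEY2 passed the test under each of the 15 alternatives by both probe sets, with 219743_at below 1.5-fold in each. Of 314 recounts of the called probe sets, 298 were within 1.5 times of the reported count. The reported count was 0 or 1 in every comparison and 0 in most. A count that stayed at 0 was scored as within 1.5 times, so that most of this agreement was near certain beforehand. With TNFα the count for H133W against empty vector cells was 0 in a fit to the 6 arrays of that comparison only, where the adjusted p of HEY2 222921_s_at was 0.239 on fewer arrays, and 1 to 3 without 1 array, 3 without H133W array 1 and 2 without H133W array 2 or empty vector array 2. For H133W against SIRT6 cells with TNFα it was 0 to 1 without 1 array, and for the TNFα response of H133W cells 0 to 2. With no fold threshold the counts were 2 and 3 for H133W against empty vector cells at rest and with TNFα, 3 for both together, 6, 7, 3 and 3 for the TNFα response of H133W, SIRT6, empty vector and untransfected cells and 13 for the mean response. Of 1239 refits of the 62 results named for single genes, 1046 kept their direction and side of the threshold, 193 fell outside it and 0 reversed. These results were chosen because they had passed and many refits left out only 1 array, so that a reversal was unlikely from the start. Of the 193, 27 came from the fit to the arrays of 1 comparison only, among them both HES1 results with TNFα (adjusted p = 0.329 for 203393_at and 0.481 for 203394_s_at), while 35 of the 62 kept their side of the threshold there. The replicate numbers did not pair the arrays (median correlation of deviations 0.0093 over 84 pairs of the same number and 0.0050 over 168 others, with 9 of 24 arrays closest to their own number). With the replicate number as a block the count of called probe sets was 1 in H133W against empty vector cells in both states, as without it, and 0 in the other comparisons of 2 conditions. Under the block JAG2 209784_s_at (adjusted p = 0.0582) and HEY1 218839_at and 44783_s_at (0.0653 and 0.0602) did not pass in the TNFα response of SIRT6 cells, nor HES1 203394_s_at (0.0503) and HEY2 222921_s_at (0.0535) in the mean response. Without the 3 arrays of lowest weight the counts were the same. With 3 arrays a condition, the 95% intervals of single differences in HEY2 222921_s_at of SIRT6 against empty vector cells ran from 0.07 to 0.66 at rest and from 0.13 to 0.72 with TNFα, so that the size of changes in SIRT6 cells is poorly bounded, and probe sets below the median of the array, such as HES1 203393_at, rest on weak signal.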
